A study of Mus musculus with 19 samples.

Results

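Type I interferon response genes, the antiviral program that cells switch on when interferon alpha or beta binds its receptor, were followed in T cells sorted from mouse liver metastases with and without Tet2. A named list of 37 genes was taken by symbol from expression tables of 25639 genes, and all 37 were present in both the CD8 and the CD4 table. The rule takes the genes by name and sets no threshold on their values, but the list was drawn up with earlier results of these data known. Total RNA sequencing had been done on 19 libraries of CD8+ or CD4+ tumor-infiltrating lymphocytes (TILs, T cells inside the tumor) from 11 mice, at day 30 after Venus-AKTPM/LOH colorectal cancer cells were injected into the spleen. The study asked how loss of Tet2, a dioxygenase that oxidizes methylated cytosine in DNA and is often mutated in blood stem cell clones, alters T cells in metastases. The 3 genotypes were Tet2fl/fl, in which the gene is flanked by loxP sites and which served as the control, Vav1CreTet2KO, and Cd4CreTet2KO. The Vav1 promoter drives Cre recombinase in blood cells generally, so that T cells and the myeloid cells around them lose Tet2, whereas the Cd4 promoter drives it in developing T cells of both the CD4 and CD8 lineages. CD8 cells were sequenced from 3 Tet2fl/fl, 3 Vav1CreTet2KO and 4 Cd4CreTet2KO mice, and CD4 cells from 3 mice of each genotype; 8 mice gave both cell types. Mouse age, sex and strain are not given in the labels used here.

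Interferon alpha and beta bind a receptor made of IFNAR1 and IFNAR2, whose kinases JAK1 and TYK2 phosphorylate STAT2. STAT2 joins IRF9 in a complex that binds the interferon-stimulated response element (ISRE) in the promoters of target genes, while interferon gamma acts mainly through a different element, the gamma-activated sequence (GAS). The targets include sensors of viral RNA and DNA, inhibitors of viral translation and replication, and feedback regulators such as USP18, and in tumors dendritic cells and macrophages are well-known producers of and responders to these interferons.

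To show the element that many of the members share, 6 promoters are printed here: 5 that hold a match and whose levels are described below, and that of Irf7, which holds none. Sequences are from RefSeq on build GRCm38.p6 and cover the 160 bases before the annotated start, read 5′ to 3′ on the strand of the gene. Capitals mark matches to the ISRE core, GAAA, any 2 bases and GAAA again, on either strand. On the other strand a match reads TTTC, any 2 bases and TTTC, and overlapping matches run together.
Isg15, chr4:156200819-156200978, minus strand: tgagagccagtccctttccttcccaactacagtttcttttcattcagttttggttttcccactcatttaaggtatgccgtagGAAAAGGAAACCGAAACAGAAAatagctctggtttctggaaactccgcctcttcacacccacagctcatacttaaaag
Ifit1, chr19:34640729-34640888, plus strand: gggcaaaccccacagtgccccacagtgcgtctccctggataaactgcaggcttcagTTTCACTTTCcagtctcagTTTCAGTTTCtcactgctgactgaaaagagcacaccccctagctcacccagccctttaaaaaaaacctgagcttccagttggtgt
Ifit3, chr19:34583369-34583528, plus strand: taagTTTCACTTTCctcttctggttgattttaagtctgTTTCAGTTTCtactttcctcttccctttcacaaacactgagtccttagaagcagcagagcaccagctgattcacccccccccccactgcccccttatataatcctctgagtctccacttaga
Bst2, chr8:71537473-71537632, minus strand: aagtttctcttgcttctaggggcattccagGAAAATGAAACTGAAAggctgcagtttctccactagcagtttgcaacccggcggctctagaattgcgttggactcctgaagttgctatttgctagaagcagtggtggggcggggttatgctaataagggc
Oas3, chr5:120777660-120777819, minus strand: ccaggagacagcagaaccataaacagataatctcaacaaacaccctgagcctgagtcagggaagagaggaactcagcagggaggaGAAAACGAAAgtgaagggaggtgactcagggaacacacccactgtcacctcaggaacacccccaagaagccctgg
Irf7, chr7:141266425-141266584, minus strand: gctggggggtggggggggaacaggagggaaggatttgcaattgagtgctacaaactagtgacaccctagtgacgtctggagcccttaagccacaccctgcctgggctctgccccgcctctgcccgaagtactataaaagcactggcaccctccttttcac
Isg15 had 3 overlapping matches, Ifit1, Ifit3 and Bst2 had 2 each and Oas3 had 1, and no match to these letters stood in the window of Irf7.

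Promoter entries were found for 27 of the 37 members, with 32 promoter windows of 300 bases (250 before the start and 50 after it). The ISRE core stood in 14 of these 32 windows (43.8%), against 1131 of all 32851 windows in the table (3.44%). Counted by gene, 13 of the 27 members (48.1%) had at least 1 match, against 3.99% of all genes with an entry. The GAS core TTCNNNGAA stood in 6 of the 32 windows (18.8%), against 8.3% of all windows. A match is a run of letters and not a measured binding site. Of the 21 ISRE matches in the members, 1 shared bases with a GAS match, in Bst2. No entry was found for Mx1, Mx2, Oas2, Usp18, Dhx58, Rtp4, Zbp1, Parp14, Parp9 and Ifi27l2a.

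The libraries held 8189300 to 20327809 reads on genes in CD8 cells and 707866 to 17575534 in CD4 cells. The shallowest, CD4 Vav1CreTet2KO replicate 1, had 7761 genes above 0 and 14 of the 37 members at 0, where the limit that a count of 0 allows (3 reads) corresponds to 0.297 to 1.04 RPKM (reads scaled to gene length and library size). CD8 Vav1CreTet2KO replicate 1 stood apart in another way: 50.6% of its counts between 1 and 20 were odd numbers, against 13.1 to 30.7% in the other 18 libraries. Cd8a and Cd8b1 summed to 335 to 428 RPKM in control CD8 libraries, 263 to 370 in Vav1CreTet2KO and 231 to 301 in Cd4CreTet2KO, the last without overlap with control. The 6 T cell genes summed to 670 to 949 RPKM in control CD8 libraries, 611 to 1189 in Vav1CreTet2KO and 440 to 700 in Cd4CreTet2KO, lowest in replicates 1 and 2. Cd4 was at 39.5 to 122.4 RPKM in CD4 libraries, at 0 in the control CD8 libraries and at most 7.68 in the knockout CD8 libraries. Tet2 transcripts were 7.42 ± 0.773 RPKM (SD, n = 3) in control CD8 cells, 4.93 ± 1.76 (SD, n = 3) in Vav1CreTet2KO and 5.0 ± 1.9 (SD, n = 4) in Cd4CreTet2KO. In CD4 cells they were 5.04 ± 1.73, 4.24 ± 1.44 and 5.54 ± 1.51 (SD, n = 3 each). Whole-gene values can include transcripts of a floxed allele that lack only the deleted exon, so these levels do not check the deletion. Replicates are separate mice.

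Genes of antigen-presenting cells moved with genotype in several of the comparisons below, so their levels are given here. Summed over 7 genes, MHC class II transcripts were 61.3 to 396 RPKM in the control CD8 libraries, 995 to 2739 in Vav1CreTet2KO and 335 to 2901 in Cd4CreTet2KO. The 12 plasmacytoid dendritic cell genes summed to 43.0 to 71.6 RPKM in control CD8 libraries, with Klk1, Cox6a2, Ly6d and Cd300c at 0 in all 3, to 108 to 257 in Vav1CreTet2KO and to 56.5 to 400 in Cd4CreTet2KO. The 8 other dendritic cell genes summed to 8.06 to 31.6, 61.5 to 106 and 27.3 to 176 RPKM in the same groups. The 12 macrophage and monocyte genes summed to 16.3 to 37.6 RPKM in control CD8 libraries and 20.8 to 74.0 in Vav1CreTet2KO, and in Cd4CreTet2KO to 8.49 to 352, with replicates 1 and 2 highest and replicates 3 and 4 at 8.49 and 10.4. Fcgr1 and Ms4a7 of that list were at 0 in every control CD8 library. Neutrophil genes summed to 89.3 and 54.7 RPKM in Cd4CreTet2KO replicates 1 and 2, and to at most 3.84 in the other CD8 libraries. In CD4 libraries MHC class II summed to 89.3 to 204 RPKM in control, 400 to 807 in Vav1CreTet2KO and 92.4 to 226 in Cd4CreTet2KO. In the same order the macrophage and monocyte genes summed to 5.03 to 89.8, 37.6 to 114 and 6.94 to 17.6 RPKM in CD4 libraries, the plasmacytoid dendritic cell genes to 48.0 to 134, 39.3 to 375 and 54.8 to 136, and the other dendritic cell genes to 4.44 to 11.7, 23.4 to 26.9 and 4.73 to 10.6. Heat shock genes took 2.11 to 2.83% of reads in control CD8 libraries and 1.07 to 1.57% in both knockouts, and 2.25 to 3.30% against 1.01 to 1.5% in CD4 cells. The part of these differences in the results below was not tested. In sorted bulk cells, fewer cells of a type and less RNA per cell cannot be told apart.

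Averaged as log2(RPKM + 1) over all 37 members, the control CD8 libraries stood at 1.98, 1.82 and 2.24 (mean 2.01 ± 0.21 SD, n = 3). The Vav1CreTet2KO CD8 libraries stood at 3.26, 2.64 and 2.25 (2.72 ± 0.51 SD, n = 3), all above the controls, though the lowest exceeded the highest control by only a small margin. In Cd4CreTet2KO CD8 cells the means were 2.85, 2.66, 2.29 and 2.14 (2.48 ± 0.33 SD, n = 4), and replicate 4 overlapped the controls. CD4 libraries showed no such order: 2.28, 2.15 and 2.6 in control, 1.87, 2.71 and 2.29 in Vav1CreTet2KO, and 2.38, 2.01 and 2.3 in Cd4CreTet2KO. The members together took 0.119 to 0.243% of reads in CD8 libraries and 0.149 to 0.213% in CD4 libraries. CD8 Vav1CreTet2KO replicate 1 held the highest level of 20 of the 37 members among the 10 CD8 libraries.

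**Figure D1:**
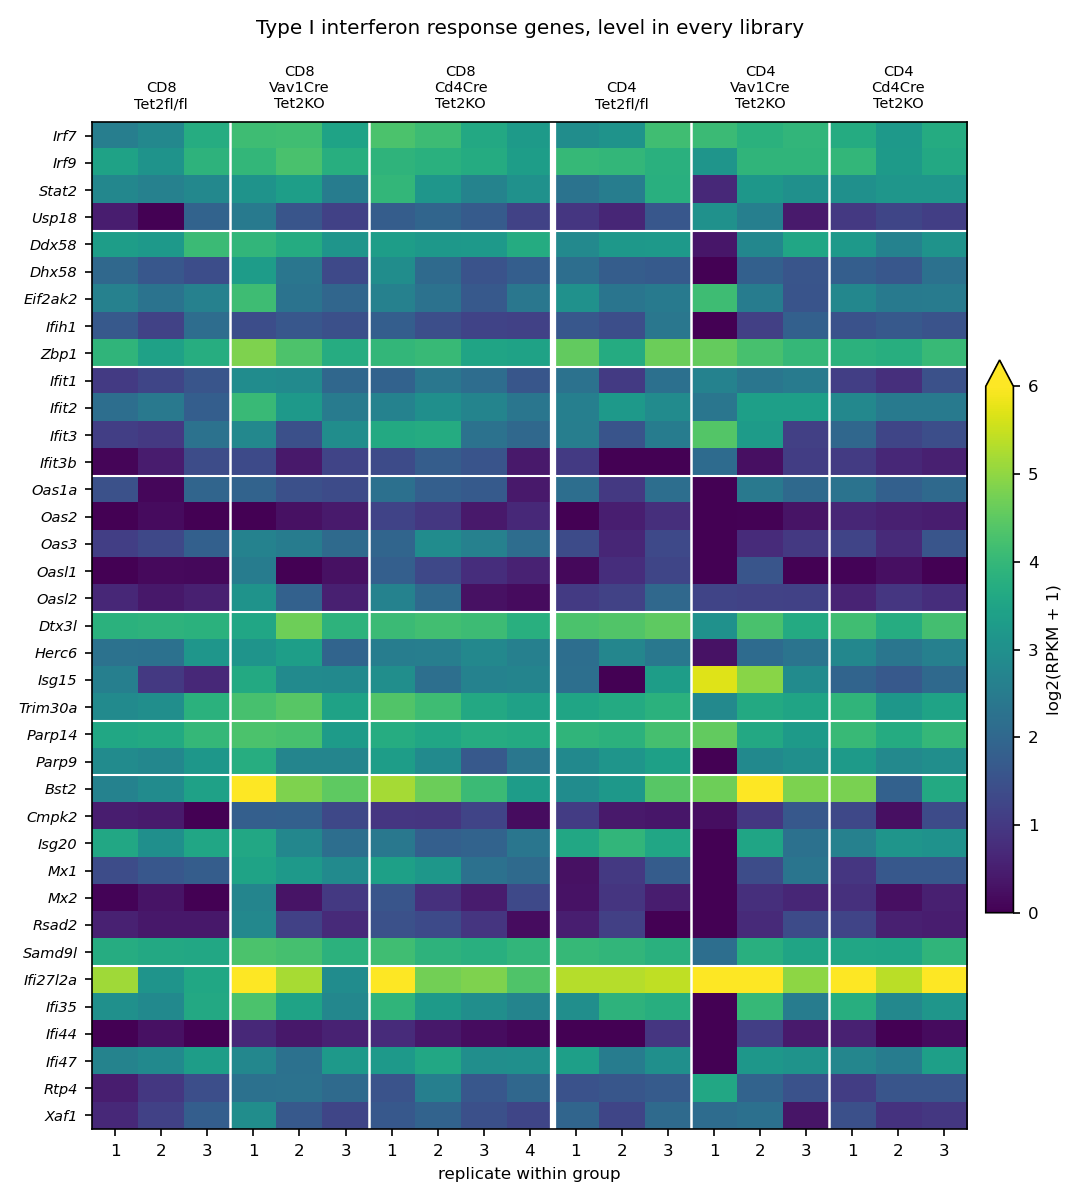
Level of each of the 37 members in each of the 19 libraries, as log2(RPKM + 1), with members grouped by role and libraries by cell type and genotype; the colour scale is capped at 6. The most high values lie in CD8 Vav1CreTet2KO replicate 1, which holds the highest CD8 value of 20 members.

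**Figure D2:**
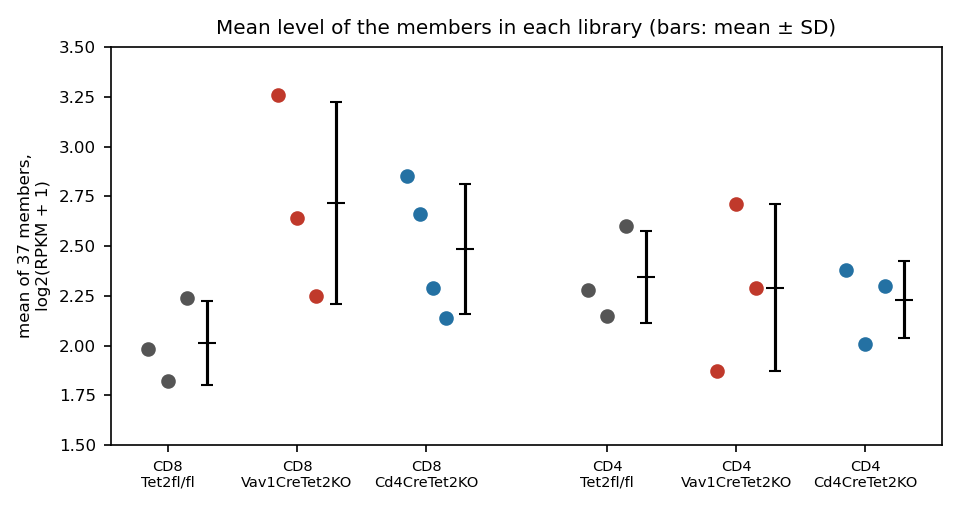
Mean log2(RPKM + 1) of the 37 members in each library, 1 point per mouse, by genotype within each cell type. The 3 CD8 Vav1CreTet2KO points lie between 2.25 and 3.26 and the 3 CD8 control points between 1.82 and 2.24, while the CD4 groups overlap.

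The first comparison set CD8 cells of mice lacking Tet2 in blood cells against Tet2fl/fl. The median member was 0.75 higher on the log2(RPKM + 1) scale, where all genes tested had a median of -0.11, and 32 of the 35 members tested had a difference above 0, against 41.6% of all genes. The members with the smallest p-values were the antiviral GTPase gene Mx1, the virus tether gene Bst2, Ifit1, Cmpk2 and Isg15. No single member passed the threshold of an adjusted p of 0.05 in the limma test over 10224 genes, which called 1.46% of genes, and the smallest adjusted p among the members was 0.0539. At an unadjusted p under 0.05, 12 of the 35 members (34.3%) were higher and 0 lower, where 5.71% of all genes were higher and 11.6% lower. In 10 members (28.6%) every knockout library exceeded every control library, against 6.92% of all genes tested, and 0 members were separated in the opposite direction, against 12.9%. Mx2, Oasl1, Oasl2, Rsad2 and Cmpk2 had every control CD8 library under 1 RPKM and passed the filter only through knockout libraries. Among the other 30 members, 9 were higher at an unadjusted p under 0.05, 8 were separated higher and the median was 0.56.

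Other count models gave different numbers of members called. On reads recovered from the RPKM values, edgeR's quasi-likelihood test called 0 members where it called 0.675% of genes, with 17 members at an unadjusted p under 0.05, all higher, where 8.11% of genes were higher. DESeq2 called 10, all higher: Bst2, Cmpk2, Ifit1, Ifit2, Mx1, Mx2, Oas3, Rsad2, Rtp4 and Samd9l, where it called 7.02% of genes. After RPKM were divided by size factors, limma called Bst2, Ifit1 and Mx1, where it called 1.93% of genes. Without Vav1CreTet2KO replicate 1 the median was 0.39 with 0 members called. Without replicate 3 Bst2, Ifit1 and Ifit2 were called higher, where 1.54% of genes were called. Mx1 was called when Cd4CreTet2KO replicate 1, or both macrophage-marked Cd4CreTet2KO libraries, were left out of the shared fit. These fits called 1.89% and 1.77% of genes.

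Of the transcription complex and its feedback, Irf7, the factor that amplifies interferon alpha production, was at 4.96, 5.93 and 12.2 RPKM in control CD8 libraries. The Vav1CreTet2KO values were 16.7, 17.0 and 10.1 RPKM, so the groups overlapped by replicate 3 of each. The difference was 0.9 on the log2(RPKM + 1) scale (SE 0.36, adjusted p = 0.226 by limma). Irf9, the DNA-binding partner of STAT2, was at 10, 7.4 and 13.8 RPKM against 14.6, 18.4 and 12.5 (0.53, SE 0.28, adjusted p = 0.348 by limma). Stat2 was at 5.81, 5.17 and 5.99 RPKM against 7.48, 9.34 and 4.75, a spread that spans the controls (0.26, SE 0.34, adjusted p = 0.716 by limma). Usp18, which removes ISG15 from proteins and blocks the receptor, was at 0.396, 0 and 2.76 RPKM against 4.53, 2.0 and 1.25. For all 4 genes of this role the groups overlapped, and their median difference was 0.71.

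The IFIT proteins bind foreign RNA and block its translation. Ifit1 was at 1.02, 1.37 and 1.98 RPKM in control CD8 libraries and at 6.58, 6.28 and 2.99 in Vav1CreTet2KO. Every knockout library lay above every control, and the difference was 1.32 (SE 0.33, adjusted p = 0.0722 by limma). Ifit2 was at 3.47, 4.39 and 2.44 RPKM against 15.8, 8.49 and 4.61 (1.14, SE 0.37, adjusted p = 0.144 by limma). Here too the groups did not overlap, by a narrow margin at replicate 3. Ifit3 was at 1.18, 1.01 and 3.76 RPKM against 5.95, 1.77 and 6.63, with an overlap. Its near copy Ifit3b had group means of 0.689 and 1.07 RPKM, and the division of reads between these 2 genes was not given in the sources used here. The median difference of the 4 IFIT genes was 1.04.

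The enzymatically active OAS proteins make a short nucleotide messenger that activates an RNase when they sense double-stranded RNA. Oas3 was at 1.16, 1.47 and 2.57 RPKM in control and 5.34, 4.7 and 3.19 in Vav1CreTet2KO CD8 cells. The groups did not overlap, and the difference was 1.0 (SE 0.33, adjusted p = 0.156 by limma). Oasl2 was at 0.586, 0.308 and 0.441 RPKM against 7.42, 2.63 and 0.433, and Oasl1 had group means of 0.0722 and 1.63 RPKM that rest on replicate 1 at 4.69. Oas1a had group means of 1.57 and 2.03 RPKM. Oas2, at 0.0422 and 0.189 RPKM, did not pass the filter of 1 RPKM in at least 3 CD8 libraries and was not tested.

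Isg15 encodes the ubiquitin-like protein that is attached to other proteins during the response. Its level was 5.04, 0.983 and 0.622 RPKM in control CD8 libraries and 11.6, 6.26 and 6.21 in Vav1CreTet2KO. All 3 knockout libraries exceeded all 3 controls, with a difference of 1.69 (SE 0.45, adjusted p = 0.0827 by limma). Trim30a, a ubiquitin ligase gene, was at 6.31, 6.83 and 13.3 RPKM against 18.0, 20.8 and 10. Herc6, the main mouse ligase that attaches ISG15, had group means of 5.14 and 6.59 RPKM. Dtx3l, whose ligase works with PARP9, was at 13.3, 13.8 and 13.3 RPKM against 10.8, 24.7 and 13.6, values on both sides of the controls. Parp9, which shares 682 bases with Dtx3l on the opposite strand in the deposited table's gene model, had means of 6.8 and 7.88 RPKM, and Parp14 of 12.5 and 15.2.

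Among the other antiviral effectors, Bst2, which encodes tetherin that holds budding virus at the cell surface and is a surface mark of mouse plasmacytoid dendritic cells, had the largest fitted difference of the 35 members. It was at 5.37, 6.43 and 9.85 RPKM in control CD8 libraries and at 126, 27.6 and 21.8 in Vav1CreTet2KO. Replicate 1 stood far above the others, and the lowest knockout value was still above the highest control. The difference was 2.44 (SE 0.59, adjusted p = 0.0637 by limma) and 1.67 without that replicate (adjusted p = 0.121 by limma; 0.000192 to 0.268 over the alternatives). Mx1, a dynamin-like GTPase that blocks viral replication, was at 1.61, 2.11 and 2.39 RPKM against 10.2, 8.35 and 6.27. These groups did not overlap, with a difference of 1.6 (SE 0.37, adjusted p = 0.0539 by limma). Cmpk2, a nucleotide kinase, was at 0.406, 0.351 and 0 RPKM against 2.52, 2.58 and 1.45 (1.34, SE 0.34, adjusted p = 0.0751 by limma).

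Mx2 was at 0.038, 0.25 and 0 RPKM in control CD8 libraries and 5.65, 0.248 and 0.998 in Vav1CreTet2KO, again led by replicate 1. Rsad2, which encodes viperin, was at 0.476, 0.307 and 0.311 RPKM against 5.99, 1.23 and 0.642. Samd9l, a restriction factor gene, was at 12.2, 11.3 and 11.1 RPKM against 18.8, 17.7 and 13.5, without overlap. Isg20, an RNA exonuclease gene, went the other way in the mean, with 11.2, 6.91 and 10.8 RPKM against 11.2, 5.91 and 3.49, and the groups overlapped. With no filter the median over all 37 members was 0.65.

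The median difference of the nucleic acid sensors was 0.28, with group means in control and Vav1CreTet2KO CD8 cells of 11.2 and 11.4 RPKM for Ddx58 (RIG-I), 2.29 and 1.85 for Ifih1 (MDA5), 2.27 and 4.86 for Dhx58 (LGP2), 4.77 and 7.81 for Eif2ak2 (PKR) and 12.1 and 19.5 for Zbp1. For all 5 sensors the groups overlapped. Of the remaining induced genes, Rtp4 was at 0.388, 0.973 and 1.71 RPKM in control CD8 libraries and 3.7, 3.77 and 3.2 in Vav1CreTet2KO. Rtp4 encodes a protein that helps receptors reach the cell surface, its knockout values were close together, and the difference was 1.22 (SE 0.35, adjusted p = 0.103 by limma). Ifi27l2a varied widely within each group, at 34.4, 7.56 and 11.0 RPKM in control and 94.3, 36.1 and 6.5 in Vav1CreTet2KO. Xaf1, Ifi35 and Ifi47 had group means of 1.44 and 3.45, 8.21 and 11.6, and 6.92 and 5.94 RPKM. Ifi44, at 0.0693 and 0.47 RPKM, was not tested.

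**Figure D3:**
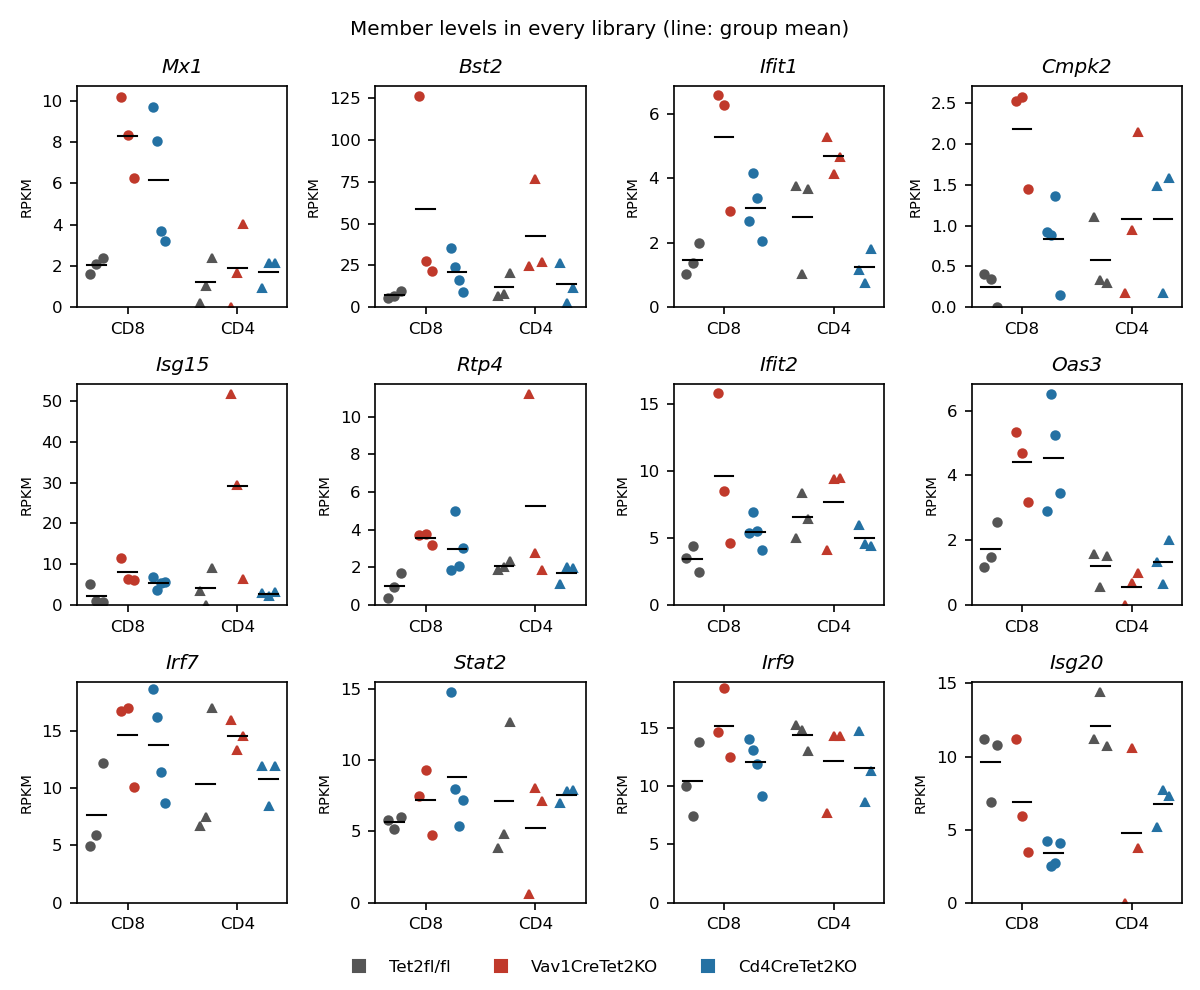
RPKM of 12 members named in the text in each library, 1 panel per gene with axes from 0, 1 point per mouse and a line at the group mean, coloured by genotype, circles for CD8 and triangles for CD4. In CD8 cells the 3 Vav1CreTet2KO points of Mx1 (6.27 to 10.2) lie above the 3 control points (1.61 to 2.39), whereas in CD4 cells the Mx1 groups overlap.

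The second comparison asked about loss of Tet2 in T cells only, with Cd4CreTet2KO CD8 cells set against the same 3 control libraries. The median member was 0.52 higher on the log2(RPKM + 1) scale, where all genes had a median of -0.15, and 29 of the 35 members tested had a difference above 0, against 33.4% of all genes. Mx1, Oas3 and Rtp4 had the smallest p-values among the higher members, and Isg20 had the smallest of all, in the lower direction. Limma called 0 members, where it called 0.567% of 10224 genes in either direction and 0.0782% as higher, and the smallest adjusted p was 0.118. At an unadjusted p under 0.05, 8 members (22.9%) were higher and 1 lower, where 3.7% of genes were higher and 8.7% lower. In 7 members every knockout library exceeded every control, against 3.85% of genes: Mx1, Oas3, Rtp4, Ifit1, Oasl1, Mx2 and Samd9l. Of these, Oasl1 and Mx2 passed the filter only through knockout libraries, and among the 30 members with a control at 1 RPKM or more 8 were higher at an unadjusted p under 0.05, 5 were separated higher and the median was 0.39. Isg20 was separated in the lower direction, where 14.0% of genes were.

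Mx1 was at 9.7, 8.05, 3.71 and 3.21 RPKM in Cd4CreTet2KO CD8 cells, all above the highest control of 2.39, with replicates 1 and 2 well above replicates 3 and 4. The difference was 1.13 (SE 0.35, adjusted p = 0.166 by limma). Oas3 was at 2.91, 6.5, 5.25 and 3.45 RPKM (1.0, SE 0.31, adjusted p = 0.174 by limma) and Rtp4 at 1.88, 4.99, 2.07 and 3.01 (0.97, SE 0.33, adjusted p = 0.217 by limma). In both genes every library lay above the highest control. Isg20 was at 4.25, 2.52, 2.73 and 4.11 RPKM, all below the lowest control of 6.91 (-1.27, SE 0.34, adjusted p = 0.118 by limma).

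Isg15 was at 6.81, 3.59, 5.31 and 5.52 RPKM (1.2, SE 0.42, adjusted p = 0.233 by limma), and replicate 2 lay under the highest control. Ifit3 was at 11.5, 11.9, 3.79 and 3.09 RPKM (1.45, SE 0.51, adjusted p = 0.242 by limma), with the same split of replicates as Mx1. Bst2 was at 35.6, 24.1, 16.1 and 8.96 RPKM (1.31, SE 0.55, adjusted p = 0.356 by limma), and replicate 4 overlapped the controls. The transcription complex was not separated: Irf7 was at 18.6, 16.2, 11.4 and 8.7 RPKM (0.8, SE 0.34, adjusted p = 0.359 by limma). Stat2 was at 14.8, 7.95, 5.42 and 7.18 RPKM (0.48, SE 0.32, adjusted p = 0.595 by limma), and Irf9 at 14.0, 13.1, 11.9 and 9.14 (0.22, SE 0.26, adjusted p = 0.798 by limma).

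Ifit1 was at 2.67, 4.18, 3.4 and 2.05 RPKM, Ifit2 at 5.34, 6.89, 5.53 and 4.12, Samd9l at 16.9, 13.6, 12.8 and 14.4 and Usp18 at 2.4, 2.89, 2.3 and 1.27. Of these, Ifit1 and Samd9l were clear of the controls in every library. Oasl2 was at 5.31 and 3.14 RPKM in replicates 1 and 2 and 0.205 and 0.122 in replicates 3 and 4, the latter below all controls. By role the median differences were 0.68 for the IFIT genes, 0.88 for the OAS genes and 0.64 for the transcription complex and feedback. Of the 4 OAS genes tested, Oasl1 and Oasl2 passed the filter only through knockout libraries. For ISG15 and the ubiquitin ligases the median was 0.43, for the sensors -0.19 and for the ADP-ribosyl transferases -0.23. Without replicates 1 and 2, the libraries with macrophage genes, the median over the members was 0.16, where all genes had -0.18, with 0 members called. In that fit 4 of the 31 members tested were at an unadjusted p under 0.05 by limma, and only 2 of these 4 were higher. The share of all genes at that level in that fit is not given here. Other fits called few members: DESeq2 on recovered reads called Mx1, Mx2, Oas3 and Samd9l higher and Isg20 lower, where it called 4.47% of genes, and edgeR called 0. At an unadjusted p under 0.05 edgeR had 15 members, 14 of them higher, where 6.37% of genes were higher. Isg20 was called lower when limma was fitted to these 2 groups alone, where 2.94% of genes were called. It was also called lower when Vav1CreTet2KO replicate 1 was left out, where 1.52% of genes were called.

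**Figure D4:**
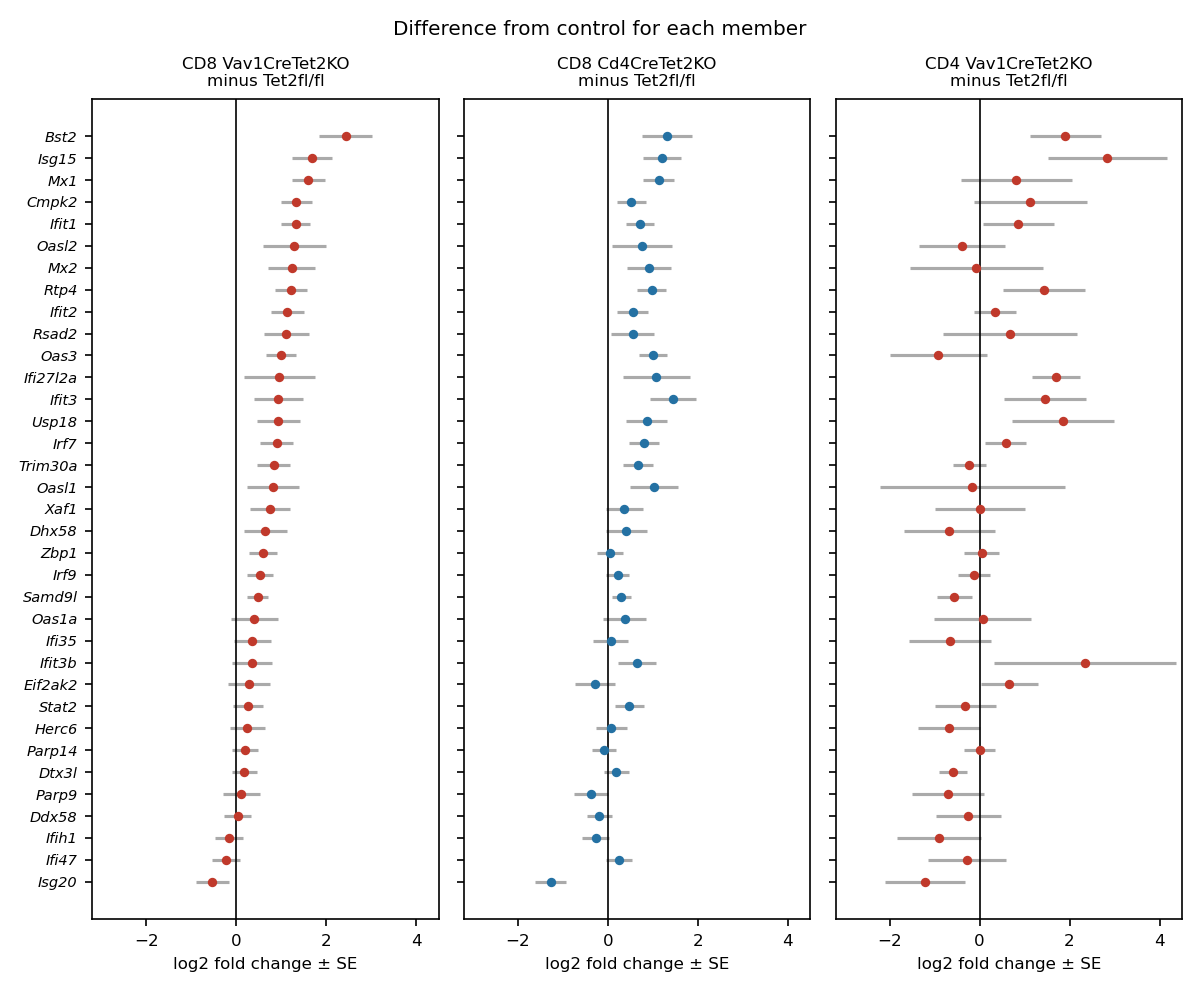
Log2 difference from Tet2fl/fl of the 35 members tested in CD8 cells, with bars of 1 SE, in 3 panels: CD8 Vav1CreTet2KO and CD8 Cd4CreTet2KO (limma, log2(RPKM + 1)) and CD4 Vav1CreTet2KO (edgeR, log2 fold change). Members with a difference above 0 number 32 of 35 and 29 of 35 in the CD8 panels and, counting also Oas2 and Ifi44, 19 of 37 in CD4 cells.

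The knockouts were also set against each other in CD8 cells. Limma called 0 of the 35 members and 0.0% of the 10224 genes, with 2 members at an unadjusted p under 0.05, both higher in Vav1CreTet2KO, where 6.35% of genes were at that level and 3.64% higher. The median member was 0.25 higher in Vav1CreTet2KO, where all genes had a median of 0.04. The smallest p-values belonged to Cmpk2 (0.82, SE 0.32), Isg20 (0.74, SE 0.34), Bst2 (1.13, SE 0.55) and Ifit1 (0.6, SE 0.31), each with an adjusted p of 0.721 by limma. Cmpk2, at 0.927, 0.889, 1.36 and 0.153 RPKM in Cd4CreTet2KO, was the 1 member in which every Vav1CreTet2KO library was higher, against 2.07% of genes, and 0 members were separated lower, against 2.46%. On recovered reads edgeR and DESeq2 called 0 members, with 1 and 2 at an unadjusted p under 0.05, where 6.25% and 7.68% of genes were. EdgeR called 0.0% of genes and DESeq2 0.64%. Without Vav1CreTet2KO replicate 1 the median was 0.05. A difference between the knockouts was thus not detected for any member, and these intervals are wide.

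In CD4 cells, Vav1CreTet2KO against Tet2fl/fl gave a median member log2 fold change of 0.0, where all genes had -0.16, and 19 of 37 members were above 0, against 43.6% of genes. EdgeR's quasi-likelihood test called 0 members, where it called 0.00738% of 13554 genes, and 3 (8.11%) were higher at an unadjusted p under 0.05, where 6.72% of genes were, and 0 lower, where 5.21% were. DESeq2 called 0 members, where it called 4.3% of genes, with 5 at an unadjusted p under 0.05, where 12.2% of genes were. Every knockout library exceeded every control in Bst2 and Ifit1 only, where 3.19% of genes did, and Dtx3l, Samd9l and Isg20 were separated in the lower direction, where 12.5% of genes were. Without the shallow replicate 1 the median was 0.23 with 0 members called.

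Ifi27l2a, an interferon-induced gene of the ISG12 family, was at 39.3, 39.1 and 42.3 RPKM in control CD4 libraries and 159, 187.8 and 30.5 in Vav1CreTet2KO. Its log2 fold change was 1.7 (SE 0.53, adjusted p = 0.246 by edgeR), with replicate 3 below the controls. Without that replicate Ifi27l2a was called higher, in a fit that called 5.68% of genes. With no filter on low counts it was also called higher, where 1.9% of genes were called. Bst2 was at 6.56, 8.12 and 20.7 RPKM against 24.6, 76.8 and 27.2 (1.91, SE 0.78, adjusted p = 0.368 by edgeR), and all knockout values were above all controls. Isg15 was at 3.55, 0 and 9.1 RPKM against 51.6, 29.4 and 6.49 (2.84, SE 1.32, adjusted p = 0.417 by edgeR), with replicate 3 inside the control range.

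Usp18 and Ifit3 showed the same division, with replicates 1 and 2 high and replicate 3 low. Usp18 was at 0.927, 0.551 and 2.1 RPKM in control CD4 libraries and 7.26, 5.04 and 0.348 in Vav1CreTet2KO (1.86, SE 1.13, adjusted p = 0.557 by edgeR). Ifit3 was at 4.94, 1.93 and 4.78 RPKM against 20.2, 8.83 and 1.19 (1.45, SE 0.91, adjusted p = 0.578 by edgeR). Rtp4 was at 1.84, 2.02 and 2.31 RPKM against 11.2, 2.74 and 1.85 (1.44, SE 0.91, adjusted p = 0.58 by edgeR), a difference that rests on the shallow replicate 1. Ifit1 was at 3.76, 1.02 and 3.67 RPKM against 5.3, 4.13 and 4.68, and Ifit2 at 5.0, 8.33 and 6.42 against 4.13, 9.39 and 9.48.

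For other members the values ran the other way or spanned the controls, and 0 were lower at an unadjusted p under 0.05 by edgeR. Dtx3l was at 18.6, 19.7 and 21.9 RPKM in control and 7.18, 18.3 and 11.7 in Vav1CreTet2KO (-0.6, SE 0.31, adjusted p = 0.476 by edgeR). Samd9l was at 15.1, 14.5 and 12.9 RPKM against 3.49, 12.8 and 10.3 (-0.56, SE 0.39, adjusted p = 0.625 by edgeR). In both genes the lowest value was that of replicate 1, and the groups did not overlap. Oas3 was at 1.58, 0.566 and 1.51 RPKM against 0, 0.678 and 0.995, and Mx1 at 0.206, 1.01 and 2.38 against 0, 1.65 and 4.05, so neither showed the separation seen in CD8 cells. Cmpk2 was at 1.11, 0.332 and 0.291 RPKM against 0.169, 0.95 and 2.14. Isg20 was at 11.2, 14.4 and 10.7 RPKM against 0, 10.6 and 3.75.

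No gene of the transcription complex was separated from control in CD4 cells. Irf7 was at 6.7, 7.48 and 17.0 RPKM in control and 15.9, 13.3 and 14.5 in Vav1CreTet2KO (0.58, SE 0.46, adjusted p = 0.678 by edgeR). Irf9 was at 15.2, 14.8 and 13.0 RPKM against 7.73, 14.3 and 14.3 (-0.12, SE 0.36, adjusted p = 0.928 by edgeR), and Stat2 at 3.84, 4.81 and 12.7 against 0.615, 8.08 and 7.13 (-0.32, SE 0.68, adjusted p = 0.895 by edgeR). Both signs turned when the shallow replicate 1 was left out, to 0.09 for Irf9 and 0.16 for Stat2. By role, the median log2 fold changes were 1.15 for the IFIT genes, -0.39 for the OAS genes, -0.42 for ISG15 and the ubiquitin ligases, -0.25 for the sensors and 0.67 for the other antiviral effectors.

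In Cd4CreTet2KO CD4 cells the members lay at control levels in the median, with a log2 fold change of -0.05 where all genes had 0.0, and 16 of 37 were above 0 where 50.3% of genes were. EdgeR called 0 members, where it called 0.0295% of genes, with 0 members at an unadjusted p under 0.05, where 2.5% of genes were. DESeq2 had 1 member at that level, where 3.08% of genes were, and also called 0, where it called 0.264% of genes. Every adjusted p among the members was 1.0 by edgeR. In Oasl2, Dtx3l and Isg20 every knockout library was below every control, where 7.93% of genes were, and 0 members were separated higher, where 5.83% of genes were. The smallest p-values belonged to Oasl1 (log2 fold change -3.17, SE 2.24), Ifi27l2a (0.71, SE 0.52), Ifit1 (-1.08, SE 0.79) and Oasl2 (-1.23, SE 0.96). They were followed by Xaf1 (-1.01, SE 0.99), Zbp1 (-0.4, SE 0.39), Ifit3 (-0.87, SE 0.89) and Dtx3l (-0.3, SE 0.31). Oasl1 rested on levels under 2 RPKM, at 0.0924, 0.736 and 1.4 in control and 0.0477, 0.178 and 0 in the knockout.

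Isg15 was at 2.84, 2.17 and 3.15 RPKM in Cd4CreTet2KO CD4 cells (-0.57, SE 1.24), within the control range, and Bst2 was at 26.7, 2.64 and 11.5 RPKM (0.21, SE 0.75), on both sides of it. Irf7 was at 11.9, 8.47 and 11.9 RPKM (0.12, SE 0.46), Stat2 at 7.0, 7.82 and 7.88 (0.17, SE 0.67) and Irf9 at 14.7, 8.65 and 11.3 (-0.23, SE 0.36). Ifi27l2a was at 78.4, 40.9 and 68.3 RPKM, with replicate 2 inside the control range.

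Between the knockouts in CD4 cells, edgeR called 0 members, where it called 0.0664% of genes and 0.0443% as higher in Vav1CreTet2KO. At an unadjusted p under 0.05, 4 members (10.8%) were higher in Vav1CreTet2KO, where 5.63% of genes were, and 0 lower, where 5.06% were. Differences above 0 numbered 21 of 37 members, against 42.2% of genes. The 4 were Isg15 (3.41, SE 1.35, adjusted p = 0.394), Ifit3 (2.32, SE 0.93, adjusted p = 0.401), Ifit1 (1.94, SE 0.81, adjusted p = 0.418) and Bst2 (1.69, SE 0.77, adjusted p = 0.455). Ifit1 was at 1.17, 0.746 and 1.82 RPKM in Cd4CreTet2KO, below all 3 Vav1CreTet2KO values, and Isg15, Irf7 and Oasl2 were separated the same way, 4 in all where 4.14% of genes were. Herc6 and Oas2 were separated in the opposite direction, where 15.3% of genes were. DESeq2 called Ifit1, where it called 3.97% of genes. The macrophage and monocyte genes summed to 37.6 to 114 RPKM in Vav1CreTet2KO and 6.94 to 17.6 in Cd4CreTet2KO. Their median log2 fold change was 3.13 over the 10 tested. EdgeR called 0 of them, with 6 at an unadjusted p under 0.05, where 10.7% of genes were. MHC class II had a median of 1.61, and the part of either list in the members' values was not tested. Isg15 was called with no filter on low counts, where 2.0% of genes were called. Without Vav1CreTet2KO replicate 3 Ifi27l2a was called, where 4.99% of genes were. In that fit the median over the members was -0.23, where all genes had -0.44. In the full set it was 0.14, where all genes had -0.19.

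Whether the knockout difference itself differed between CD8 and CD4 cells was tested with an interaction term in limma over all 19 libraries. For Vav1CreTet2KO the median member difference was 0.89 larger in CD8 than in CD4 cells, where all genes had a median of 0.16, and 31 of 35 members were above 0, where 59.1% of genes were. Limma called 0 members and 0.0% of 11121 genes. At an unadjusted p under 0.05, 3 members (8.57%) were larger in CD8, where 5.73% of genes were, and 0 smaller, where 3.48% were. The smallest p-values were those of Oas3 (1.53, SE 0.53, adjusted p = 0.403), Samd9l (1.25, SE 0.46, adjusted p = 0.43), Trim30a (1.18, SE 0.5, adjusted p = 0.502) and Dtx3l (0.92, SE 0.44, adjusted p = 0.546). On reads of both tables edgeR called 0 members, with 6 larger in CD8 at an unadjusted p under 0.05, where 4.19% of genes were. Without the shallow CD4 Vav1CreTet2KO replicate 1 the median was 0.63, and without CD8 Vav1CreTet2KO replicate 1 it was 0.62.

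For Cd4CreTet2KO the interaction had a median of 0.53 over the members, where all genes had -0.09, and 29 of 35 members were above 0, where 43.0% of genes were. Limma called 0 members, where it called 0.0629% of genes. At an unadjusted p under 0.05 by limma, 3 members (8.57%) were larger in CD8, where 2.21% of genes were, and 0 smaller, where 3.51% were. EdgeR had 5 members larger in CD8 at that level, where 3.81% of genes were, and also called 0 members. Ifit1 (1.41, SE 0.51, adjusted p = 0.708), Ifit3 (2.1, SE 0.91, adjusted p = 0.85), Oasl1 (1.65, SE 0.74, adjusted p = 0.87) and Rtp4 (1.16, SE 0.61, adjusted p = 0.977) had the smallest p-values. In mice that gave both cell types, the mean log2(RPKM + 1) of the members in CD8 minus CD4 cells was -0.3, -0.33 and -0.36 in the controls, 1.39, -0.07 and -0.04 in Vav1CreTet2KO and -0.09 and -0.16 in Cd4CreTet2KO. The controls were thus alike, and the value of 1.39 pairs the CD8 library with odd counts and the shallow CD4 library of 1 mouse. These levels are set across tables that were normalized separately, and they are given without a test.

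The pathway upstream of the members was read from fixed lists. Of 18 type I interferon ligand genes, 5 were listed at 0 in all 19 libraries and 3 reached 1 RPKM in any library: Ifna1 at 1.38 in CD8 Vav1CreTet2KO replicate 3, Ifnk at 11.0 in CD8 Vav1CreTet2KO replicate 1 and Ifnz at 4.09 in CD4 Vav1CreTet2KO replicate 2. Ifnb1 was at 0 in 17 of 19 libraries and at most 0.0943 RPKM. None of the ligands passed the filter in CD8 cells. Interferon gamma, in contrast, was abundant in CD8 cells, with Ifng at 129 ± 39.5 RPKM in control (SD, n = 3), 108 ± 52.0 in Vav1CreTet2KO (SD, n = 3) and 36.6 ± 27.5 in Cd4CreTet2KO (SD, n = 4). All 4 Cd4CreTet2KO values lay below the controls, where 14.0% of genes were so separated. The difference in Ifng was -2.01 (SE 0.49, adjusted p = 0.0954 by limma).

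All 16 receptor and proximal signalling genes were tested in CD8 cells and none was called in either comparison with control. In Vav1CreTet2KO 4 were at an unadjusted p under 0.05 by limma, where 17.3% of genes were, and in Cd4CreTet2KO 3, where 12.4% were. Their medians were 0.01 in Vav1CreTet2KO and -0.05 in Cd4CreTet2KO. Ifnar1 was at 11.0 ± 2.35 RPKM in control, 16.9 ± 4.01 in Vav1CreTet2KO and 15.7 ± 4.15 in Cd4CreTet2KO CD8 cells (SD, n = 3, 3 and 4), and at 17.6 ± 4.75, 15.5 ± 5.26 and 18.5 ± 4.59 in CD4 cells (SD, n = 3 each). Ifnar2, the chain that carries the STAT docking sites, was at 7.37 ± 2.56, 14.2 ± 3.3 and 13.2 ± 4.62 RPKM in the CD8 groups. Its Vav1CreTet2KO values were all above the controls, where 6.92% of genes were so separated (0.88, SE 0.33, adjusted p = 0.19 by limma). In CD4 cells Ifnar2 was at 7.04 ± 0.869, 9.28 ± 4.55 and 8.36 ± 2.02 RPKM.

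Tyk2, the kinase bound to IFNAR1, was at 14.0 ± 0.306 RPKM in control CD8 cells, 7.52 ± 5.12 in Vav1CreTet2KO and 9.25 ± 2.55 in Cd4CreTet2KO. Every library of either knockout was below every control, where 12.9% of genes were so separated in Vav1CreTet2KO and 14.0% in Cd4CreTet2KO. The difference in Vav1CreTet2KO was -0.98 (adjusted p = 0.2 by limma). In CD4 cells Tyk2 was at 9.78 ± 1.49, 7.07 ± 2.92 and 10.3 ± 0.515 RPKM. Jak1 was at 83.3 ± 8.1, 82.2 ± 11.5 and 86.1 ± 11.9 RPKM in the CD8 groups and 95.9 ± 11.8, 58.4 ± 27.1 and 73.9 ± 12.3 in the CD4 groups.

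Other interferon-stimulated genes outside the 37 were represented by a list of 62, of which 54 were tested in CD8 cells. In Vav1CreTet2KO 3 were called higher and 0 lower by limma, where 0.45% of all genes were called higher, with a median of 0.22. Of the 54, 13 were at an unadjusted p under 0.05 by limma, where 17.3% of genes were. Epsti1, an interferon-induced gene named for epithelial and stromal interaction in breast tumors, was at 36.7, 48.0 and 62.1 RPKM in control CD8 libraries, 234, 183.8 and 113 in Vav1CreTet2KO and 79.2, 93.6, 133 and 97.2 in Cd4CreTet2KO. It rose by 1.80 on the log2(RPKM + 1) scale in Vav1CreTet2KO (SE 0.32, adjusted p = 0.016 by limma), with no overlap of the groups. In CD4 cells Epsti1 was at 34.8, 32.6 and 34.9 RPKM in control, 91.6, 71.4 and 48.9 in Vav1CreTet2KO and 34.4, 25.4 and 30.2 in Cd4CreTet2KO. Its call in CD8 cells was lost in 4 of 18 alternatives, among them without control replicate 1 (adjusted p = 0.131 by limma) and without control replicate 2 (0.0675), over a range of 8.16e-07 to 0.131.

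Ifi213, of the family of DNA sensors that includes AIM2, rose by 1.55 (SE 0.34, adjusted p = 0.0446 by limma), and Ifit1bl1, an IFIT relative, by 1.83 (SE 0.41, adjusted p = 0.0487 by limma). The call of Ifi213 was lost in 11 of 18 alternatives and that of Ifit1bl1 in 13. In Cd4CreTet2KO CD8 cells 0 of the 54 were called, with a median of 0.26. At an unadjusted p under 0.05 by limma there were 6, where 12.4% of genes were. In CD4 cells 0 of the 55 tested were called by edgeR in either comparison with control. EdgeR had 13 of them at an unadjusted p under 0.05 in Vav1CreTet2KO, where 11.9% of genes were, and 1 in Cd4CreTet2KO, where 2.5% were. The interferon gamma-induced GTPases, of which 14 were tested in CD8 cells, gave 0 calls in both comparisons with control. At an unadjusted p under 0.05 by limma there were 4 and 1, where 17.3% and 12.4% of genes were. The medians of these GTPases were 0.27 and -0.11. Of the genes that sense nucleic acid upstream of interferon, 17 were tested in CD8 cells and 0 were called in either comparison with control. Limma called 1.46% of all genes in Vav1CreTet2KO and 0.567% in Cd4CreTet2KO. In Vav1CreTet2KO 8 of the 17 were at an unadjusted p under 0.05 by limma, where 17.3% of genes were, and in Cd4CreTet2KO 5, where 12.4% were.

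The members did not vary as 1 unit. After the group means were taken away, the deviations of each tested CD8 member correlated with the mean deviation of the other members with a median r of 0.67 over 10 libraries, a description only, since the points share library, depth and cell makeup. Ifi35 (0.98), Bst2 (0.94), Zbp1 (0.91), Rsad2 and Oasl2 (both 0.9) followed the others most closely. Rtp4 (0.17), Isg15 (0.15), Ifi47 (0.12) and Dtx3l (-0.16) followed them least. Of the 35 members, 25 had r above 0.5 and 1 was below 0. In CD4 cells, over 33 members, the median r was 0.53 and the range -0.68 to 0.92. Isg15 and Rtp4 thus belonged to the members separated between CD8 Vav1CreTet2KO and control and to those that moved least with the rest within groups.

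The 4 CD8 libraries with the highest member means were also the 4 with the most MHC class II transcripts. In Vav1CreTet2KO CD8 cells MHC class II summed to 2739, 1555 and 995 RPKM in replicates 1 to 3 and the member means were 3.26, 2.64 and 2.25. In Cd4CreTet2KO it summed to 2901, 1223, 335 and 680 RPKM with member means of 2.85, 2.66, 2.29 and 2.14. In control it summed to 110, 61.3 and 396 RPKM with means of 1.98, 1.82 and 2.24, so the highest control in MHC class II was also the highest in the members. Below the top 4 the orders differed, with a mean of 2.29 at 335 RPKM and 2.14 at 680. In CD4 cells Vav1CreTet2KO replicate 2 was highest in both (806.6 RPKM, mean 2.71). Replicate 1 of that group had 740.2 RPKM and the lowest mean, 1.87, and control replicate 3 had 204.5 RPKM and 2.6. The relation was not tested. Limma called 4 of the 7 MHC class II genes higher in CD8 Vav1CreTet2KO, among them H2-Aa (3.77, adjusted p = 0.0279). Also called higher were 3 of 12 plasmacytoid dendritic cell genes (Cox6a2, Pld4 and Ly6d) and 2 of 8 other dendritic cell genes (Clec9a and Flt3). Of all genes tested, 0.45% were called higher in that comparison. Over 18 alternatives the number of MHC class II genes called ranged from 0 to 6, and was 0 in 5 of them. No plasmacytoid dendritic cell gene was called in 6 of the 18, and no other dendritic cell gene in 5. In CD8 Cd4CreTet2KO limma called H2-DMb1 and Cox6a2 of these lists higher, where 0.0782% of all genes were called higher. There, no MHC class II gene was called in 10 of 18 alternatives and no plasmacytoid dendritic cell gene in 9.

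**Figure D5:**
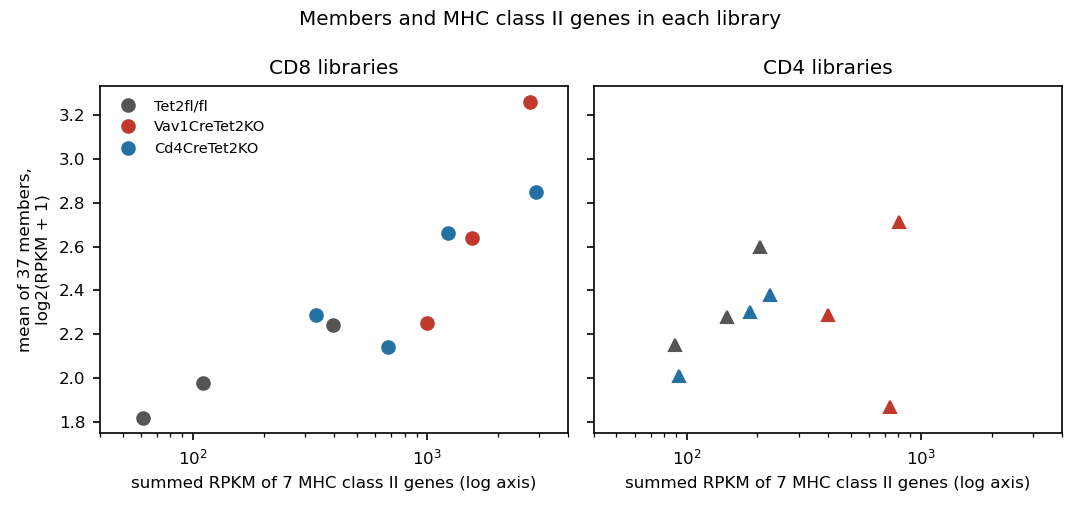
Mean log2(RPKM + 1) of the 37 members against summed RPKM of 7 MHC class II genes on a log axis, 1 point per library, CD8 and CD4 shown apart, coloured by genotype. The CD8 libraries run from 61.3 RPKM and a mean of 1.82 to 2739 and 2901 RPKM with means of 3.26 and 2.85. In CD4 cells the lowest mean, 1.87, lies at 740.2 RPKM. No line is drawn and no test was made.

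The authors' deposited table of comparisons gave calls for a few of the same members. In that table, at a false discovery rate under 0.05, 4 of 37 members were higher in CD8 Vav1CreTet2KO than control, where 1.64% of 19552 genes were: Bst2 (log2 fold change 3.04, rate 8.64e-06), Mx1 (2.07, 0.00186), Mx2 (4.52, 0.0081) and Ifit2 (1.5, 0.0481). For CD8 Cd4CreTet2KO the authors' deposited table likewise had 4 members higher, where 1.62% of genes were: Mx1 (1.81, 0.00598), Oas3 (1.64, 0.0113), Bst2 (1.76, 0.0357) and Mx2 (3.66, 0.043). No member was lower in either, and in CD4 cells the authors' deposited table had 0 members past that rate in either comparison with control. The authors' comparisons use the same libraries and are no independent evidence. Mx1 and Bst2 were thus past the threshold in the authors' deposited table and just outside it by limma, with adjusted p-values of 0.0539 and 0.0637 in Vav1CreTet2KO.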

How the data were processed

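Per the labels' protocols, T cells were sorted by CD45, CD3, CD4 and CD8 and total RNA libraries were made with a stranded kit for low input; the submitters' processing notes name builds GRCm38 and mm10. The aligner, the counter and any use of strand in counting were not given in the sources used here. The authors deposited 1 table per cell type: RPKM per gene for CD8, and read counts with RPKM for CD4, per the file headers. The same tables hold the authors' log2 fold change and false discovery rate (FDR, an adjusted p-value) per comparison, per the file headers. Another 18 columns of per-sample values were not used, against 28 used.

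CD8 values were tested as log2(RPKM + 1) with limma 3.58.1 (trend, R 4.3.3) over genes at 1 RPKM or more in at least 3 libraries, all genotypes in 1 fit. CD4 counts were tested with edgeR 4.0.16 (robust quasi-likelihood test, filterByExpr with a minimum of 10 and a total of 15, TMM). The interaction used limma on log2(RPKM + 1) of both tables. P-values were Benjamini-Hochberg adjusted over all genes tested, and "called" means under 0.05. All tests were two-sided. The fold change on the log2(RPKM + 1) scale understates that of low genes. CD8 reads recovered from RPKM with gene lengths implied by the CD4 table were whole within 0.01 for 100% of 134905 values and served edgeR and DESeq2 1.42.0 as alternatives. The other alternatives changed the pseudocount to 0.1, the filter, the scaling, the samples in the fit and a replicate block, or left out libraries. The limma, edgeR and interaction fits were tested on simulated data.

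The members and lists were chosen with earlier results of these data known. Values per test are given for called members, otherwise for the 8 members of smallest p (4 between knockouts and for interactions), and always for Irf7, Stat2, Irf9, Isg15 and Bst2 against control. Isg20, Samd9l, Mx2, Rsad2, Oasl1, Oasl2, Trim30a and the other members are given by level. A gene of the receptor and signalling list that the rule gives by level is not reported here. Promoters are RefSeq GRCm38.p6; the build of the deposited coordinates is not given with them, so none is printed. Genes that overlap others in those tables (Parp9 with Dtx3l, Ifi47 with Olfr56, Parp14 with Gm49730, Irf9 with Rnf31, Irf7 with Phrf1, Rtp4 with Masp1, Oas2 with Gm43068) are uncertain where reads could be assigned to either.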

Additional observations from a re-analysis of the deposited data

Results flagged for a closer look

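Ifi27l2a in CD8 Cd4CreTet2KO cells had 1 mouse far from the other 3: replicate 1 was at 71.1 RPKM, where replicates 2 to 4 were at 25.4, 27.6 and 19.3. The gap to its neighbour took 0.84 of the range of the group, above Dixon's 95% critical value for 4 samples. This group alone has enough libraries for the test, and it was searched for all 37 members. Chance gives about 1 such sample in 20 searches, and 1 was found among the 37. The same library had the highest MHC class II, macrophage and plasmacytoid dendritic cell sums of the CD8 libraries, at 2901, 352 and 400 RPKM. Their part in the value was not tested.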

How the results depend on the processing

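Over all comparisons and alternatives, the number of members called stayed at its first value of 0 in 132 settings and moved in 13. In CD8 Vav1CreTet2KO against control it moved from 0 to 3 with size factors, 10 with DESeq2 on recovered reads and 1 without both macrophage-marked libraries, and lay between 0 and 3 when single libraries were left out. In CD8 Cd4CreTet2KO against control it moved to 1 with only these 2 groups and 5 with DESeq2, and lay between 0 and 1 without single libraries. In CD4 cells it moved to 1 with no filter for Vav1CreTet2KO against control, and to 1 with DESeq2 and 1 with no filter between the knockouts, with 0 to 1 without single libraries in both.

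Medians over the members moved by more than the spread in 7 settings. The CD8 Vav1CreTet2KO median was 1.143 with DESeq2 and 0.39 to 1.10 without single libraries. The CD8 Cd4CreTet2KO median was 0.928 with edgeR, 0.905 with DESeq2, 0.157 without both macrophage-marked libraries and 0.30 to 0.69 without single libraries. In CD4 cells the median between the knockouts was -0.232 (all genes -0.44) to 0.34 (all genes -0.2) without single libraries. The interaction medians reached 1.375 for Vav1CreTet2KO with a pseudocount of 0.1 (0.62 to 1.17 without single libraries) and 0.94 for Cd4CreTet2KO with edgeR. The CD8 medians against control stayed above 0 in all 18 settings, and the CD4 Vav1CreTet2KO median lay between -0.32 and 0.28.

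Single genes changed sign only in CD4 cells. In Vav1CreTet2KO against control, Stat2 ranged from -0.672 to 0.443 without single libraries (0.443 without control replicate 3, 0.163 without Vav1CreTet2KO replicate 1), and Irf9 from -0.331 to 0.094 (the latter without Vav1CreTet2KO replicate 1). In Cd4CreTet2KO against control, Irf7 was -0.13 and -0.072 and Stat2 -0.139 and -0.049 without control replicates 1 and 2 (Stat2 up to 0.953). Isg15 was 0.046 with limma and -1.145 to 0.8 without single libraries, and Bst2 was -0.083 with limma and -0.612 to 0.971 without single libraries (-0.077 without control replicate 1). The cause was not tested. With the replicate number as a block 0 members were called in every comparison, and the CD8 medians were 0.75 for Vav1CreTet2KO and 0.73 for Cd4CreTet2KO. Same-numbered mice of different genotype share only a number, with correlations of deviations of -0.076 to 0.065 in CD8 and -0.091 to 0.104 in CD4. The animal as a block gave interaction medians of 0.89 and 0.50. With 3 or 4 mice per group, members at 1 RPKM or less are limited by depth.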
